A study of Condylura cristata and Mus musculus with 12 samples.

Results

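The cytosolic ribosomal protein genes were taken as every row whose symbol starts with Rpl or Rps, continues with a number and ends, if at all, in the letters a, x, y or l or further digits. The rule found 82 rows of 33773 in the table of star-nosed mole (Condylura cristata) counts, 49 for the large subunit and 33 for the small one. It found 81 rows of 26125 in the mouse (Mus musculus) table, 49 and 32. All 81 mouse symbols were in the mole table, and Rps4y1 was in the mole table alone.

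The study compared poly-A RNA of trigeminal ganglia (TG), which innervate the face, with that of dorsal root ganglia (DRG), which innervate the rest of the body, in 2 species. Mole tissue came from wild adult males, with 3 TG and 3 DRG libraries. Mouse tissue came from adult C57BL/6 females, with 2 libraries labelled TG and 2 labelled DRG used here. None of the animals carried a transgene or treatment by the labels, and by the study's methods each sample was a single individual except for 1 mole DRG sample, not further identified, that combined a pair of animals. In the mole, TG 1 and DRG 1 were prepared with a different kit (Genomic Sample Prep) and sequencer (Genome Analyzer II, 76 bases) from all other libraries, which were TruSeq.

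Each cytosolic ribosome joins a small subunit, which reads the mRNA, to a large subunit, which makes the peptide bond, and each subunit is built of ribosomal RNA and a set of proteins encoded by single genes. In most cells these proteins are made in nearly equal amounts, and their mRNAs share a run of pyrimidines at the 5′ end (the 5′ terminal oligopyrimidine, or TOP, motif) through which their translation is switched by the mTOR pathway. Mammalian genomes also hold many processed pseudogenes of these genes and a few expressed copies (paralogues), so reads can match more than 1 row. In sensory neurons, ribosomes are found in the cell body and in axons.

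Library totals ran over 8409670 to 11140894 counts in mole TG, 9706906 to 92323879 in mole DRG, 126677697 to 147076817 in mouse libraries labelled TG and 90548941 to 125816358 in DRG-labelled ones. The Hox genes, which mark body position and are normally low in the head, matched the mole labels, with 1 of 33 tested higher and 19 lower in TG. In the mouse they ran the other way, with 25 of 33 higher, 0 lower and 4 negative in the libraries labelled TG. Skeletal muscle markers were higher under the label TG in both species, so mouse directions below are by label only. Sensory neuron markers (Prph, Nefh, Isl1 and 9 others) summed to 19030 to 39682 CPM (counts scaled to a common library size) in mole TG and 17447 to 24845 CPM in mole DRG, though 10 of the 12 were negative, 3 of them lower and 0 higher in TG, with a median log2 fold change of −0.53. In the mouse they summed to 15974 to 16772 CPM in libraries labelled TG and 14864 to 18094 CPM in DRG-labelled ones.

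The pyrimidine run can be read in the annotated mouse transcripts, of which 80 carried a member's symbol (GENCODE M21, GRCm38). A C followed by at least 4 pyrimidines stood at the first base of 9 of them (11.2%), 7 large and 2 small subunit members, against 2.15% of 21923 protein-coding genes. Such a run lay within the first 30 bases of 46 members (57.5%), against 33.3% of all. The first 24 bases of 4 of the 9 are shown for the motif the members share, with the run in capitals. Rpl4 differed between the mole ganglia by less than its error, Rpl32 and Rps24 carry the longest runs, and Rpl36 and Rps24 had almost no counts in the mole.
Rpl4: CTTTTCCTgtgggagcagccgggt
Rpl32: CTTCCTTCTTCCTCggcgctgcct
Rps24: CTCTTTTCCTCCTCTCCagctccg
Rpl36: CTTCCTgtcccggccgccatcgga
Their genes span chr9:64173375-64178666 (plus strand), chr6:115805505-115808747 (minus), chr14:24487125-24496959 (plus) and chr17:56613416-56614243 (plus), in the order printed. These are spans of whole genes, so a transcript shown need not start at the edge. Annotated starts are not mapped cap sites, and a missing run says only that these letters were not in the window.

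In mole TG, large subunit members took 2.38%, 2.08% and 1.81% of the counts in replicates 1 to 3, against 1.11%, 1.92% and 1.15% in mole DRG. Small subunit members took 1.67%, 1.49% and 1.27% in TG, against 0.686%, 1.29% and 0.698% in DRG. DRG 2 lay above TG 3 in both sums, so the groups overlapped, and DRG 1 and DRG 3 lay well below all TG libraries. Small subunit counts per large subunit count were 0.702 to 0.714 in TG and 0.607 to 0.673 in DRG, without overlap. These are shares of RNA in bulk tissue, where fewer cells of a type and less RNA per cell cannot be told apart.

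**Figure D1:**
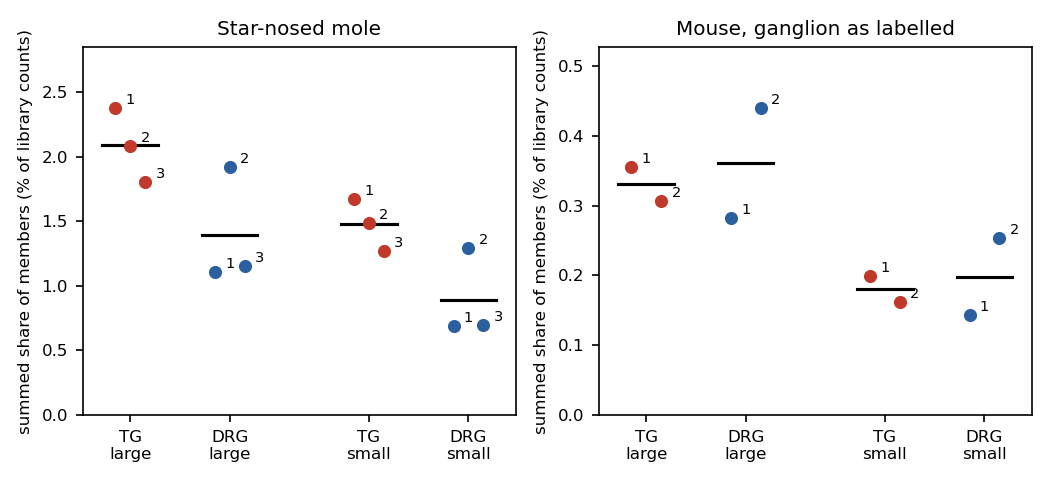
Summed share of a library's counts in large and small subunit members (vertical axis, percent), for each mole library (left) and each mouse library as labelled (right); points are libraries with their replicate number and bars are group means. Mole DRG 2 (1.92% large, 1.29% small) sits among the TG libraries, and in the mouse the library labelled DRG 2 (0.439% and 0.254%) is the highest of the 4.

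Of the 82 mole rows, 78 passed the filter on low counts. Of these, 9 of 47 large and 7 of 31 small subunit members, 16 in all, were higher in TG by edgeR's quasi-likelihood test at an adjusted p under 0.05, and 0 were lower. Over all 18078 genes tested, 10.5% were higher and 12.9% lower. The median log2 fold change was 0.44 over the large and 0.89 over the small subunit members, against 0.11 over all genes tested. It was positive in 41 of 47 and 26 of 31. Every TG library lay above every DRG library in 14 large and 14 small subunit members, against 21.7% of all genes, and below in 1 large subunit member, Rpl7l1, against 22.4%. None passed at an adjusted p under 0.01 by edgeR.

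Among the large subunit members, Rpl8, which lies near the peptidyl transferase centre, had the smallest adjusted p. It stood at 783, 847 and 742 CPM in TG and 277, 438 and 260 CPM in DRG, with a log2 fold change of 1.28 ± 0.28 (SE, adjusted p = 0.020). TG libraries were close to each other, and DRG 2 was the highest of the DRG. Rpl7a, needed in yeast for early steps of large subunit assembly, gave 1065, 1300 and 1235 CPM in TG and 239, 593 and 371 CPM in DRG. Its log2 fold change was 1.58 ± 0.36 (adjusted p = 0.021), with the lowest TG library at 1065 and the highest DRG library at 593 CPM.

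Rpl28 had the largest log2 fold change of all 78 members tested. It stood at 766, 863 and 774 CPM in TG and 140, 419 and 148 CPM in DRG (1.76 ± 0.45, adjusted p = 0.030). Rpl35, which lies at the peptide exit site, was at 715, 784 and 595 CPM in TG and 113, 416 and 153 CPM in DRG (1.62 ± 0.49, adjusted p = 0.047). In both genes DRG 2 stood well above DRG 1 and DRG 3 and still below every TG library. Rpl18 (1.31), Rpl38 (1.25), Rpl12 (1.10) and Rpl13a (0.96) were called too, with adjusted p between 0.035 and 0.046. Rpl38 is known in mice for a role in the translation of Hox mRNAs, and Rpl13a in humans as part of the interferon-gated GAIT complex, which works off the ribosome.

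In the small subunit, Rps16, which reaches the decoding centre with its tail, had the smallest adjusted p. It gave 783, 756 and 660 CPM in TG and 197, 422 and 208 CPM in DRG (1.41 ± 0.35, adjusted p = 0.027). Rps19, the gene most often mutated in Diamond-Blackfan anaemia, a human red cell disease, was at 1102, 879 and 787 CPM in TG and 260, 527 and 205 CPM in DRG (1.48 ± 0.39, adjusted p = 0.033). TG and DRG did not overlap in either. Rps7, needed in human cells to mature the small subunit RNA, was at 872, 865 and 741 CPM in TG and 227, 563 and 252 CPM in DRG (1.25 ± 0.38, adjusted p = 0.049). Rps15 (1.36), Rps18 (1.11) and Rps9 (1.04) were called too, with adjusted p between 0.038 and 0.046. Rps3, which forms the mRNA entry with Rps2 and Rps9, was just outside, with a log2 fold change of 0.98 and an adjusted p of 0.050.

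**Figure D2:**
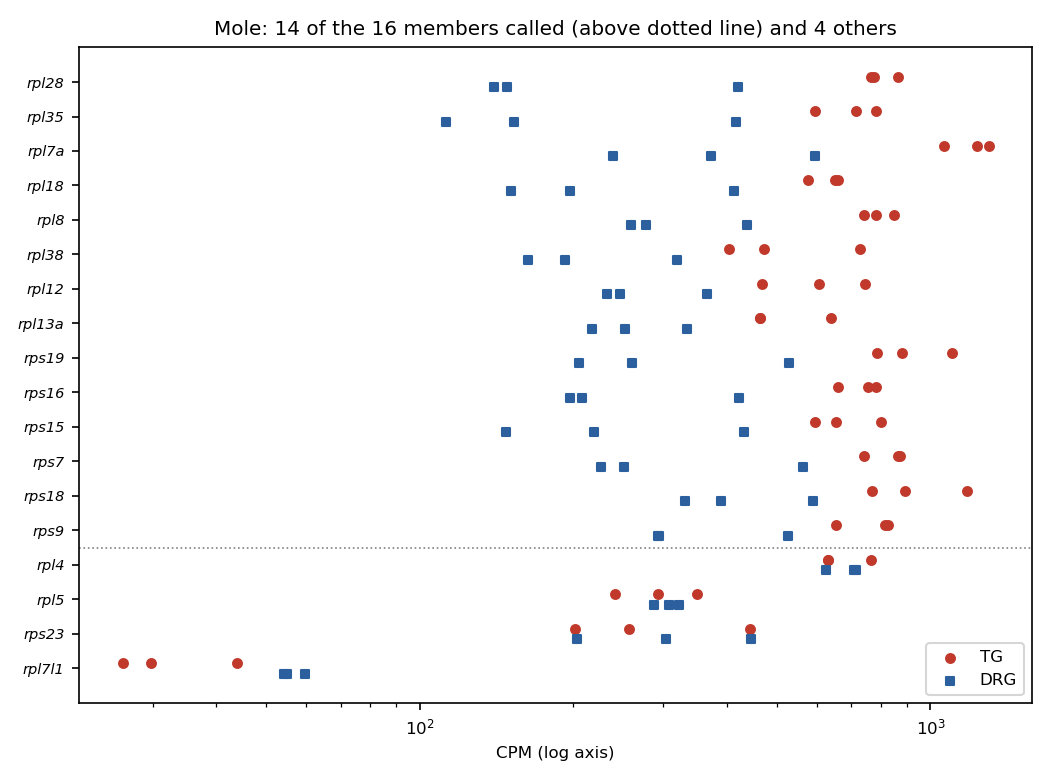
CPM on a log axis (horizontal) of 14 of the 16 called mole members, sorted by fold change within each subunit, and of 4 others (vertical, gene symbols); circles are the 3 TG and squares the 3 DRG libraries. In each called member shown the 3 TG libraries lie right of the 3 DRG libraries, and the rightmost DRG square is replicate 2, whereas Rpl4, Rpl5 and Rps23 overlap and Rpl7l1 lies the other way.

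For other members of the same particles no difference was detected. Rpl4, whose loop lines the exit tunnel, was at 766, 629 and 630 CPM in TG and 625, 708 and 716 CPM in DRG (−0.02 ± 0.23, adjusted p = 0.96). Rpl5 and Rpl11, which bind the 5S RNA and, when free, restrain MDM2 and stabilise p53, gave −0.05 ± 0.24 and 0.34 ± 0.41 (adjusted p = 0.89 and 0.57). The groups overlapped in all 3. Of the other tunnel and catalytic centre members, Rpl3 (0.72, adjusted p = 0.061) had TG above DRG throughout, and Rpl10 (0.42), Rpl17 (0.12), Rpl23a (0.49) and Rpl39 (0.04) overlapped.

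Around the mRNA channel and decoding centre, Rps2 (0.99, adjusted p = 0.095), Rps26 (0.95, 0.088) and Rps28 (1.30, 0.080) had every TG library above every DRG library without passing. Rps23, whose loop touches the decoding site, was at 443, 257 and 201 CPM in TG and 204, 446 and 303 CPM in DRG (−0.08 ± 0.40). Rps6, the S6 kinase substrate read out as a sign of mTOR activity, gave 0.46 ± 0.33 (adjusted p = 0.33). Rpl35a, another Diamond-Blackfan gene, gave 0.26 ± 0.45. In these 3 the ganglia overlapped.

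A log2 fold change below 0 was found in 11 tested members. The lowest was Rpl7l1, a paralogue of Rpl7, at 44.0, 29.8 and 26.2 CPM in TG and 54.9, 54.3 and 59.6 CPM in DRG (−0.76 ± 0.29, adjusted p = 0.090). Rpl7 itself overlapped, at 877, 399 and 311 CPM in TG and 505, 796 and 586 CPM in DRG (−0.25 ± 0.42). Rps4x (−0.37), Rpl9 (−0.34), Rps3a (−0.32) and Rpl22l1 (−0.48) also overlapped, and none of the 11 passed.

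Rpl41, the shortest protein of the ribosome, had 1 library far from the rest. TG 1 was at 1809 CPM, with TG 2 and TG 3 at 544 and 510 CPM, and DRG at 642, 584 and 530 CPM (0.71 ± 0.49, adjusted p = 0.32). TG 1, one of the Genomic Sample Prep libraries, was also the highest of the 6 in the median member of both subunits. Its median was 0.74 (large) and 0.77 (small) above the member's mean over the libraries on the log2(CPM + 0.5) scale. DRG 1, made with the same kit, stood at −0.49 and −0.64.

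**Figure D3:**
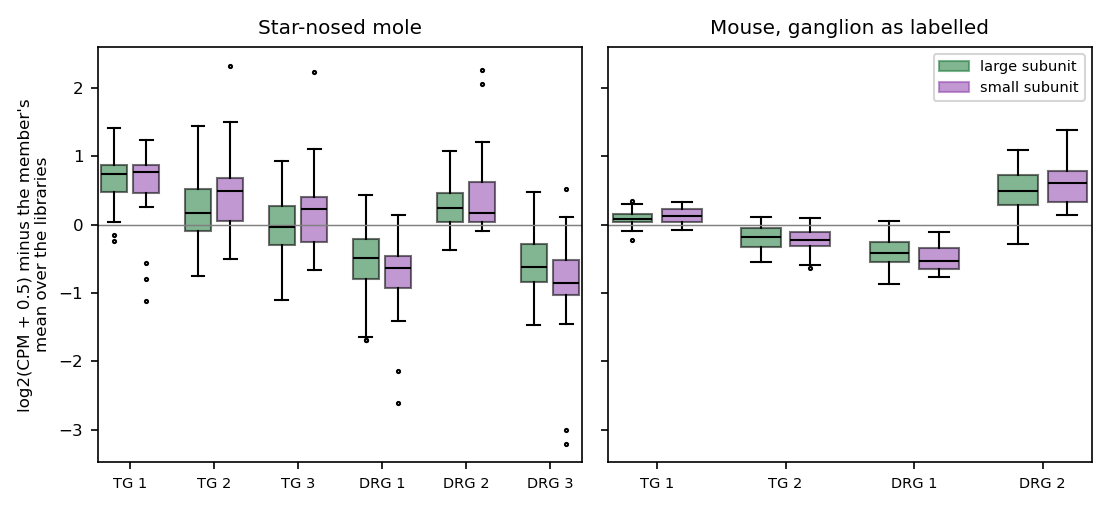
Level of each tested member in each library as log2(CPM + 0.5) minus its mean over the libraries of that species (vertical), in boxes of quartiles with whiskers to 1.5 times the interquartile range, by library and subunit. In the mole, DRG 2 (medians 0.25 and 0.16) stands apart from DRG 1 (−0.49 and −0.64) and DRG 3 (−0.62 and −0.86), and in the mouse the 2 libraries labelled DRG are the lowest and the highest of the 4.

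The number of mole calls depended on the libraries kept, for the members as for all genes. Without DRG 2, 18 large and 16 small subunit members were higher in TG and 0 lower, where 18.5% of all genes were higher and 18.2% lower, and all 16 calls remained. Without TG 2, TG 3, DRG 1 or DRG 3 in turn, 0 members were called, where 1.05 to 2.11% of all genes were higher and 1.07 to 2.44% lower. Without TG 1, 8 were called, 7 of them higher, where 12.0% of all genes were higher and 18.8% lower. Rps12, whose mole row held 1 to 25 counts in a library, was among the members called higher without DRG 2 and without TG 1. It did not pass the filter of the full fit and carries no statement about the mole. The 16 calls of the full fit all kept a positive log2 fold change in each of these fits. Within the TruSeq libraries, 2 TG and 2 DRG, Rpl7a alone was higher (1.34, adjusted p = 0.045) and Rpl22l1 alone lower (−1.79, adjusted p = 0.047), where 4.76% of all genes were higher and 10.2% lower. The median was then 0.01 over the large and 0.53 over the small subunit members. The Genomic Sample Prep kit has 1 library of each ganglion and gives no test of its own.

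The fold change followed the GC content of the transcript, in the members as over all genes. Since the mole sequences were not used here, GC content was that of the mouse transcript of the same symbol, which 76 of the 78 tested members had. Across members, which share libraries and read mapping, Spearman's rho between GC and the log2 fold change was 0.71 over 47 large and 0.59 over 29 small subunit members, against 0.57 over 13665 genes. Above the subunit's median GC (50.7% large, 50.9% small) the median fold change was 0.84 over 23 large and 1.05 over 14 small subunit members. At or below it the median was 0.23 over 24 and 0.35 over 15. Above it lay 14 of the 16 calls, and at or below it lay Rps16 and Rps7.

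With offsets that take out each library's trend with GC, fitted on the 13665 of 18078 genes tested that had a value (75.6%), 3 large and 3 small subunit members were higher and 0 lower, against 4.50% and 6.99% of all genes. These 6 were Rpl7a (1.36), Rpl27a, Rpl37, Rps16 (1.55), Rps7 (1.56) and Rps3, and Rpl8 fell back to 0.45 (adjusted p = 0.26). The medians were 0.61 and 0.60. With offsets for transcript length in their place, 4 large and 2 small subunit members were higher and 1 of each lower (Rpl9 and Rps27l), against 10.3% and 12.4% of all genes, and the medians were −0.15 and 0.31. Rpl7a and Rps16 were higher under both offsets. All 16 calls stayed positive under either.

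**Figure D4:**
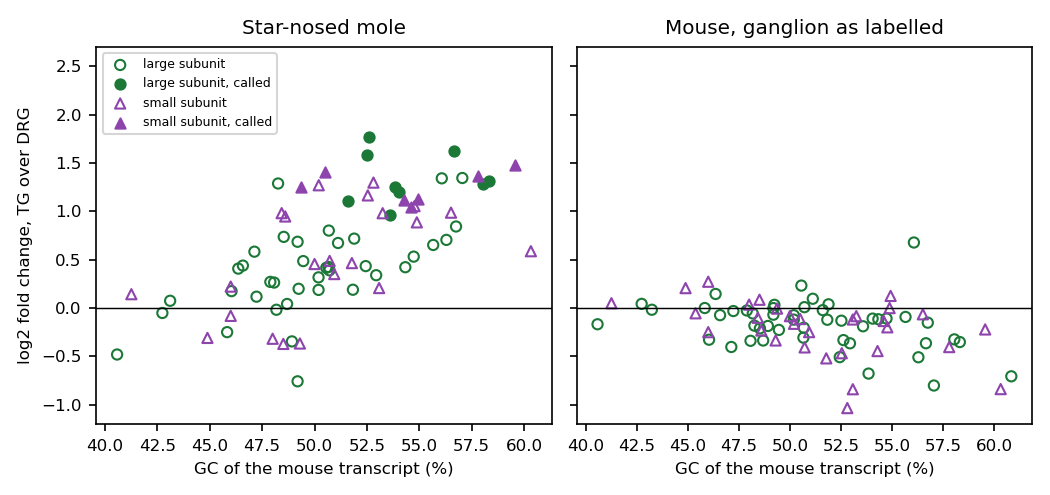
Log2 fold change of TG over DRG (vertical) against GC content of the mouse transcript in percent (horizontal) for tested members, mole left and mouse right; circles are large and triangles small subunit members, filled where called. The mole values rise with GC (rho 0.71 large, 0.59 small, 0.57 over all genes), and the mouse values fall (−0.37, −0.40 and −0.27), with 0 called. Without the mouse library labelled DRG 2 the members' rho was −0.15 (large) and 0.05 (small).

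Other cell types' markers moved with the mole ganglia. Skeletal muscle markers were higher in TG in 6 of 8, at 1303 to 3126 CPM summed in TG and 481 to 921 in DRG, and myelin markers in 5 of 7, at 10301 to 11700 and 1894 to 3656 CPM. Surface epithelium markers were higher in 4 of 6 and summed to 22.0 to 1410 CPM in TG and 9.78 to 14.9 in DRG, and macrophage markers in 3 of 6, at 164 to 268 and 44.4 to 67.8 CPM. Central nervous system markers were higher in 4 of 7 and lower in 1, at 213 to 641 CPM in TG and 35.2 to 64.3 in DRG. Satellite glia markers were higher in 1 of 5, at 7582 to 8454 CPM in TG and 2644 to 3011 in DRG. Fibroblast markers were lower in 1 of 5, at 471 to 810 and 641 to 1148 CPM, and 0 of 4 blood markers were called, at 585 to 1505 and 275 to 1372 CPM. No marker list had a gene at 0 in all 6 libraries. Their part in the difference of the ribosomal protein genes was not tested.

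The other parts of the translation machinery did not all follow the members. Of 7 cytosolic ribosomal proteins outside the naming rule, Rplp2, a stalk protein that recruits elongation factors, was higher in TG, at 686, 569 and 533 CPM in TG and 133, 244 and 150 CPM in DRG (1.76 ± 0.31, adjusted p = 0.012). The other 6, Rplp0 and Rplp1 among them, were positive without passing, with a median of 0.58 over the 7. Among 19 translation factors and further TOP mRNAs, Eef1d was higher (2.01) and Eif2s3x (−1.98) and Btf3 (−0.87) lower, with a median of −0.23. Eef1a1, the main elongation factor, was at 1288, 1518 and 1538 CPM in TG and 2580, 1876 and 2675 CPM in DRG (−0.71 ± 0.25, adjusted p = 0.072), without overlap.

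Eef1a2, the form of that factor found in neurons and muscle, was higher in TG, at 3511, 4558 and 3713 CPM in TG and 1420, 2592 and 1186 CPM in DRG (1.18 ± 0.34, adjusted p = 0.044). Of 13 translation factors outside the TOP class it was the 1 higher, and Eif4e, Eif4a2, Eif4g2 and Etf1 were lower (−1.06 to −1.79), with a median of −0.53. Of 25 ribosome biogenesis genes, 2 were higher (Bop1 at 1.89 and Fbl at 1.04) and 5 lower (Wdr12, Tsr1, Rrn3, Polr1b and Nolc1), with a median of 0.04. Bop1 and Wdr12, partners in 1 complex that matures the large subunit RNA, went opposite ways. Mitochondrial ribosomal protein genes had 9 higher and 9 lower of 75 tested and a median of 0.01. These lists stand beside 10.5% and 12.9% of all genes, and the difference between them and the members was not tested.

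In the mole, 7 members that the mouse libraries held in quantity had at most 248 counts in any library. Rpl15, a core large subunit protein, had 0, 4 and 3 counts in mole TG and 0, 0 and 5 in mole DRG. In the mouse it had 10106 and 10822 counts in libraries labelled TG and 8018 and 8271 in DRG-labelled ones. Rpl36 reached 9 mole counts at most, Rps12 25, Rps15a 37, Rpl21 58, Rps24 61 and Rps27a 248. Rpl15, Rpl36, Rps12 and Rps15a did not pass the filter. A gene that every ribosome needs is listed near 0 in these rows, so they carry no statement about the mole's levels.

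Rps4y2 and Rpl3l split the mole libraries across the ganglia. Rps4y2 was at 28.7 and 21.6 CPM in TG 2 and TG 3 and 23.1 CPM in DRG 2, against 6.45 CPM in TG 1 and 8.17 and 0.775 CPM in DRG 1 and DRG 3. Rpl3l, in other mammals a muscle form of Rpl3, was at 76.3, 50.7 and 38.5 CPM in the first 3, and 24.9, 12.2 and 9.60 CPM in the others. This split is by library and was seen after the values were known, so it is given without a test.

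Mole counts also fell in rows that the mouse table hardly used or did not hold. Rpl10l, in mice and humans a retrocopy of Rpl10 active in the testis, stood at 157, 174 and 140 CPM in mole TG and 63.2, 167 and 65.3 CPM in mole DRG. In the mouse it was at 0.118 and 0.027 CPM in libraries labelled TG and 0.015 and 0.126 CPM in DRG-labelled ones. It had 33.4 to 38.4 counts per 100 of Rpl10 in mole TG and 23.0 to 38.3 in mole DRG, and at most 0.10 in any mouse library. The mole table also held 33 rows named as pseudogenes of ribosomal protein genes, of which 30 were tested, with a median of 0.86 and 1 higher in TG. These rows took 0.228 to 0.257% of the counts in TG and 0.083 to 0.248% in DRG. The mouse table held only 4 rows so named, which took at most 0.002% of the counts, so the 2 shares do not compare use between species.

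The other paralogues overlapped between the mole ganglia. Rpl22l1 had 4.40 to 10.8 counts per 100 of Rpl22 in TG and 7.99 to 12.7 in DRG. Rps27l had 6.26 to 9.91 per 100 of Rps27 in TG and 9.23 to 16.7 in DRG, Rpl36al had 101 to 143 per 100 of Rpl36a in TG and 141 to 172 in DRG, and Rpl39l had 13.5 to 17.0 per 100 of Rpl39 in TG and 5.80 to 20.6 in DRG. Rps4y1, in humans the Y-linked copy of Rps4x, had 57.8, 56.9 and 45.4 CPM in TG and 35.1, 94.2 and 24.6 CPM in DRG. As a measure of how far such rows can share reads, a median of 59.7% of the 36-base windows of a large subunit mouse transcript and 53.2% of a small one occurred in another mouse gene too. Values of single members are therefore uncertain wherever a copy is near-identical.

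**Figure D5:**
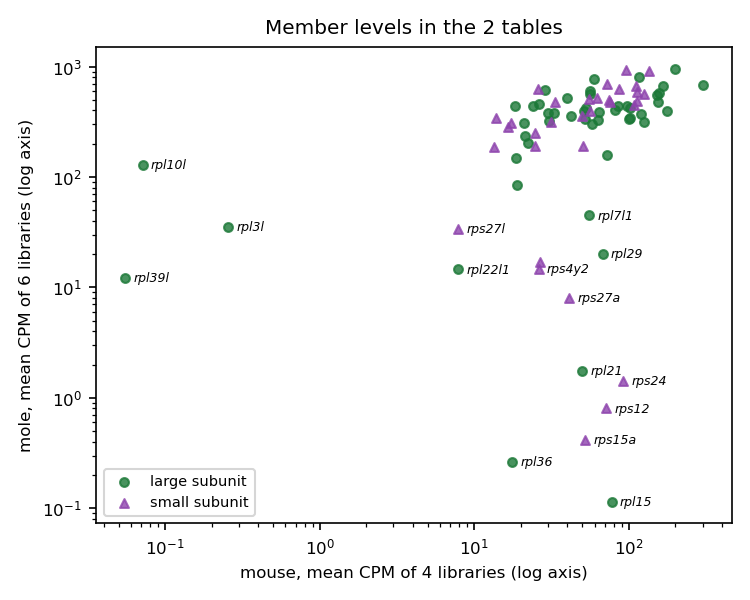
Mean CPM of each of the 81 shared members in the mole (vertical, 6 libraries) against the mouse (horizontal, 4 libraries), both on log axes; circles are large and triangles small subunit members, and those under 60 CPM in the mole or under 2 CPM in the mouse are named, with 1 exception. Rpl15, Rpl36, Rps12 and Rps15a lie under 1 CPM in the mole, and Rpl10l, Rpl3l and Rpl39l under 1 CPM in the mouse.

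Per kilobase of mouse transcript, the 5 highest large subunit members in the mole were Rpl41 (1762 CPM per kb), Rpl32, Rpl38, Rpl7a and Rpl26 (796). In the mouse they were Rpl19 (207), Rpl4, Rpl26, Rpl8 and Rpl9 (169). Among small subunit members the highest 5 held Rps18 (1234), Rps27, Rps19 and Rps15 (948) in the mole and were Rps9 (168), Rps18, Rps12, Rps7 and Rps3a (115) in the mouse. Spearman's rho between the species' mean CPM was 0.52 over 49 large and 0.57 over 32 small subunit members. Species, sex, read length and mapping reference cannot be told apart between the tables, so no level was tested between species. The mouse transcript stands in for the mole's, and those of Rps15a and Rps20 are long models with a low value per kb.

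In the mouse, large subunit members took 0.355% and 0.307% of the counts in libraries labelled TG, against 0.282% and 0.439% in DRG-labelled ones. Small subunit members took 0.199% and 0.162% in libraries labelled TG, against 0.143% and 0.254% in DRG-labelled ones. In both sums the 2 libraries labelled DRG enclosed those labelled TG. The ratio of small to large subunit counts ran from 0.527 to 0.562 in libraries labelled TG and from 0.506 to 0.578 in DRG-labelled ones.

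Of 80 mouse members tested, 48 large and 32 small, 0 were called in either direction by edgeR, and DESeq2 and limma-voom also called 0. Over all 21394 genes, 1.12% were higher and 1.21% lower in the libraries labelled TG. At an unadjusted p under 0.05 the members also gave 0, against 7.31% higher and 8.85% lower of all genes. The medians were −0.13 (large) and −0.15 (small), against −0.02 over all genes, and 39 of 48 and 26 of 32 were negative. Every library labelled TG lay above every one labelled DRG in 2 large subunit members (24.2% of all genes) and below in 1 (23.9%).

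The 2 above were Rpl10, which completes the catalytic centre, and Rpl3l. Rpl10 stood at 130 and 128 CPM in libraries labelled TG and 95.6 and 125 CPM in DRG-labelled ones (0.23 ± 0.16, adjusted p = 0.54). Rpl3l was under 0.4 CPM throughout. Rpl7l1 was below here too, at 54.5 and 53.6 CPM in libraries labelled TG and 55.2 and 58.1 CPM in DRG-labelled ones (−0.07 ± 0.13, adjusted p = 0.85).

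The lowest small subunit value was that of Rps28, at 10.6 and 6.90 CPM in libraries labelled TG and 6.54 and 29.3 CPM in DRG-labelled ones (−1.03 ± 0.64, adjusted p = 0.49). Rpl13 was the lowest in the large subunit, at 43.4 and 38.6 CPM in libraries labelled TG and 37.6 and 105 CPM in DRG-labelled ones (−0.80 ± 0.43, adjusted p = 0.43). Rps29 (−0.84), Rps10 (−0.84), Rpl36 (−0.71) and Rpl38 (−0.68) had the same shape, with the library labelled DRG 2 alone high. Spearman's rho of the log2 fold change with transcript length was 0.58 (n = 48 large) and 0.51 (n = 31 small), and with GC −0.37 and −0.40, against 0.073 and −0.27 over 17170 genes. These relations depended on the library labelled DRG 2. Without it the members' rho with length was −0.45 and −0.24, and with GC −0.15 and 0.05. Myelin markers were lower in the libraries labelled TG in 6 of 7, at 4147 to 4204 CPM in libraries labelled TG and 10388 to 13664 in DRG-labelled ones. Skeletal muscle markers were higher in 6 of 8, at 36.7 to 48.6 CPM in libraries labelled TG and 3.56 to 4.80 in DRG-labelled ones. Central nervous system markers were lower in 3 of 7, at 66.0 to 77.2 and 246 to 278 CPM, and satellite glia markers in 1 of 5, at 1224 to 1266 and 2002 to 4527 CPM. Fibroblast markers were higher in 1 of 5, and 0 macrophage, blood, surface epithelium or sensory neuron markers were called. Their part in these values was not tested.

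The direction in the mouse turned on which library labelled DRG was kept. Without DRG 1, 29 large and 18 small subunit members were lower in the libraries labelled TG and 0 higher, where 12.8% of all genes were lower and 9.38% higher, and the medians were −0.62 and −0.59. Without DRG 2, 8 large and 9 small subunit members were higher and 0 lower, where 4.81% of all genes were higher and 5.57% lower, and the medians were 0.39 and 0.45. Rpl41, Rps19, Rps15, Rpl36a and Rpl36al were among those called higher without DRG 2. Such a fit rests on 1 library labelled DRG, taken to vary as those labelled TG do.

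Whether the ganglion difference differed between species was tested as an interaction over all 10 libraries, with the mouse labels taken as given. The mouse Hox genes contradict those labels, and the contrast with the labels exchanged was not tested, so these results hold for the labels only. Of the 46 large and 30 small subunit members that were also tested in each species alone, 0 were called, where 4.39% of 21580 genes were positive (a larger TG over DRG change in the mole) and 12.6% negative. A further member, Rps12, was called, which did not pass the filter in the mole and entered here through its mouse counts. Its difference was 2.95 ± 0.85 (log2, adjusted p = 0.037), and it rested on 5, 25 and 14 mole counts in TG and 1, 4 and 9 in DRG. It carries no statement about the mole, and the call was lost in 7 of the 10 fits that left out 1 library. The next were Rpl7l1 (−1.15 ± 0.41, adjusted p = 0.074), Rpl8 (1.15 ± 0.41, 0.076), Rpl7a (1.26 ± 0.49, 0.099) and Rpl13 (1.69 ± 0.69, 0.12). The medians over all 49 large and 32 small subunit members in this fit were 0.25 and 0.61. These sets include rows with few counts in 1 species, such as Rpl15 and Rps12. The medians lay 0.41 and 0.76 above the −0.16 of all genes, and the all-gene median moved to 0.31 with RLE factors in place of TMM.

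Of the members tested in both species, 33 large and 23 small were positive in the mole and negative by label in the mouse, 7 and 2 positive in both, 4 and 1 negative in both, and 2 and 4 negative in the mole alone. The 9 called large subunit members of the mole ran from −0.68 (Rpl38) to −0.02 (Rpl12) in the mouse and the lowest of the small ones was Rps18 (−0.44). Since the mouse values carry labels that the Hox genes contradict, their sign is given only as labelled. With DESeq2 the interaction called 5 large and 1 small subunit members positive and 0 negative, where 14.5% of all genes were positive and 13.2% negative. The small one was Rps12, whose few mole counts carry no statement about the mole. Rpl8, Rpl7a and Rpl38 of the mole calls were among the 5 large ones, and edgeR called none of these in the interaction.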

How the data were processed

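The authors deposited raw whole-number counts for each gene. By the study's methods, Stampy 1.0.11 (substitution rate 0.03) placed mole reads on human transcripts first, on dog next and on mouse last, with counts summed over HomoloGene build 64 homologs. The authors' lists of called genes were not used, and 1 further mouse sample of each ganglion was not analysed here.

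In R 4.3.3, edgeR 4.0.16 (filterByExpr with minimum count 10, TMM, quasi-likelihood test, Benjamini-Hochberg over all genes, threshold 0.05) compared TG with DRG in each species and tested the interaction over 24049 shared symbols. SE was taken as log2 fold change over root F. CPM use TMM-scaled library sizes. No fold is given under 3 counts. The fits were tested on simulated data. Alternatives were DESeq2 1.42.0, limma 3.58.1 voom, RLE factors, factors without ribosomal protein genes, other filters, a threshold of 0.01, the replicate block, the library kit, GC and length offsets (loess, span 0.3) and leaving out libraries. Replicates are separate samples by the labels. Named members followed a fixed rule (the smallest p in each subunit, paralogues, the highest and lowest levels, known roles). The members and lists were chosen with earlier results of these data known. A few single members are counted in the totals but not reported here by name.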

Additional observations from a re-analysis of the deposited data

Results flagged for a closer look

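For Rps12, the mole minus mouse difference of the log2 fold change was 2.95 (SE 0.85, adjusted p = 0.037 by edgeR), which passed the interaction test by its adjusted p. The mole row held 1 to 25 counts in a library, did not pass the filter of the mole fit, and entered the interaction through its mouse counts, so the value carries no statement about the mole. With at least 10 counts required in every library it was not tested. The mouse change was −0.12. The call was lost in 7 of the 10 fits that left out 1 library, with limma-voom, with GC offsets (2.81, adjusted p = 0.051, and also with the block), and with length offsets and the block. Over the alternatives its adjusted p by edgeR, DESeq2 or limma ran from 0.0023 to 0.15. The weight of so few counts in this result was not tested.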

How the results depend on the processing

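Large and small subunit members higher in TG numbered 12 and 13 with DESeq2 (15.2% of all genes), 14 and 15 with limma-voom (18.7%) and 5 and 3 with no filter (3.92%). They numbered 8 and 3 with the library kit as a covariate (1813 of 18078 genes) and 1 and 0 when TruSeq libraries alone were fitted. With GC offsets they were 3 and 3, with length offsets 4 and 2, and at an adjusted p under 0.01 by edgeR 0 and 0. Without TG 1 and DRG 2 together they were 21 and 21 (33.3%), with Rpl21, Rps12 and Rps27a, which had few mole counts, among them. DRG 2 lay nearest the TG libraries in the members' sums, so leaving it out favours a difference and gives no separate support. Lower in TG were 1 large subunit member each with limma-voom (16.4% of all genes), TruSeq libraries alone (10.2%) and length offsets (12.4%). Length offsets also gave 1 small one lower, and leaving out TG 1 and DRG 2 gave 3 and 1 (29.9%). Leaving out 1 library at a time gave 0 to 18 large and 0 to 16 small subunit members higher, and 0 to 1 and 0 lower. The large subunit median changed sign with length offsets (−0.15). Rps27a became positive (2.43, adjusted p = 0.0077 by edgeR) without TG 1 and DRG 2. Its row is one of those with few mole counts and carries no statement about the mole.

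With the replicate block, 10 and 9 mole members were higher (9.01% of all genes). The GC offsets with the block gave 4 and 4 higher, where 4.14% of all genes were higher and 6.00% lower. The length offsets with the block gave 3 and 1 higher and 1 and 0 lower (large subunit median −0.16). There 8.27% of all genes were higher and 9.87% lower. Same-numbered mole libraries had correlations of their deviations of 0.37, 0.49 and −0.17, so the numbers were not taken to pair them, and not every library correlated best with its own number. TG 1 and DRG 1 also share a kit and sequencer. In the mouse these were −0.13, and the block and the crossed pairing, chosen after seeing the data, gave 0 calls each. Leaving out 1 mouse library gave 0 to 8 large and 0 to 9 small subunit members higher and 0 to 29 and 0 to 18 lower. The medians were −0.62 and −0.59 without DRG 1, 0.39 and 0.45 without DRG 2, and 0.0061 (small) without TG 2. Rpl36a (−0.68 without DRG 1 and 0.98 without DRG 2), Rpl36al (−0.67 and 0.77), Rpl41 (−1.15 and 0.67), Rps15 (−0.998 and 0.62) and Rps19 (−0.80 and 0.75) turned positive and passed without DRG 2.

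In the interaction, positive large and small calls numbered 5 and 1 with DESeq2 (14.5% of all genes), 2 and 0 with limma-voom (6.81%), 1 and 1 with RLE factors (7.28%), 2 and 0 with at least 10 counts in every library (11.6%), 9 and 8 without TG 1 and DRG 2 (17.9%), and 12 and 11 from a z test of the separate fits (20.6%). They were 0 and 0 with GC offsets, with or without the block, with length offsets and the block, and at 0.01. With the block alone there were 0 and 1. Rps12, with its few mole counts, was the small call with DESeq2, RLE factors and the block alone. Without TG 1 and DRG 2 it was called too, as were Rpl15, Rpl21 and Rps27a, which also had few mole counts. Negative calls were 1 large with limma-voom (19.0% of all genes), and 3 and 2 without TG 1 and DRG 2 (28.3%). Leaving out 1 library gave 0 to 6 of each subunit positive and 0 to 2 of each negative. The large subunit median became −0.19 with length offsets, −0.30 with the block too and −0.32 without mouse DRG 2, where the small one became −0.019, against 1.03 without mole DRG 2. Rps27a, with its few mole counts, became 2.17 (adjusted p = 0.029 by edgeR) without TG 1 and DRG 2, which carries no statement about the mole. Why the counts moved was not tested, and summed shares moved by less than 1 SD against the counts of the rest.

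Totals of 8409670 to 11140894 counts in 5 of the 6 mole libraries, 2 libraries a group in the mouse and reads shared between copies limit what single members can show.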

Other observations

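The members' profile across rows followed the mole ganglion and also varied within it. Spearman's rho over the 82 members' counts was 0.995 between TG 2 and TG 3, and for TG 1 0.916 with TG 2 and 0.906 with TG 3. Within DRG it was 0.924 between DRG 1 and DRG 3, 0.861 between DRG 1 and DRG 2 and 0.870 between DRG 2 and DRG 3. Across the ganglia it ran from 0.675 between TG 2 and DRG 1 to 0.858 between TG 1 and DRG 2, below every value within a ganglion. Between TG 2 and DRG 2 it was 0.826. Points share rows and read mapping, and no test is given. Over all genes the deviations of TG 2 and DRG 2 from their group means had r = 0.49, those of TG 1 and DRG 1 0.37, and those of TG 1 and DRG 2 −0.45.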
